A study of Rattus norvegicus with 10 samples.

Results

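RNA of the CA1 region, microdissected from hippocampal slices that received SKF alone, an agonist of the dopamine D1/D5 receptors, was compared with the other 4 treatment groups of the series. SKF alone was measured in 2 of the 10 libraries, taken by their labels, and the other 8 libraries stood in 4 groups of 2. Each of those groups had equal weight in the mean that SKF was compared with. SKF+Aβ slices received SKF and Aβ oligomers at 200 nM. SKF+Aβ+CSP slices also received CSP, a glucose-derived carbon nanosphere used as vehicle, and SKF+Aβ+CSP‐TTK21 slices received the same nanosphere loaded with TTK21, which activates CBP and p300, each at 0.36 μg/ml. CSP‐TTK21 alone slices received neither SKF nor Aβ. SKF was therefore common to 4 of the 5 groups and Aβ to 3 of the 4 groups that SKF was compared with, and an untreated group is not analysed here. All slices came from male Wistar rats of 5 to 7 weeks, had 30 min of basal stimulation and were collected 1 h after treatment. Each repeat combined 2 slices from 2 biological samples, so p-values measure the spread between such pools.

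Dopamine D1 and D5 receptors raise cAMP, which activates protein kinase A and, through it, the transcription factor CREB. CREB binds the cAMP response element in promoters and recruits CBP and p300, and within an hour this pathway is known to induce immediate early genes such as Fos, Junb and Egr1, followed by effectors that act at the synapse. The comparison asks which transcripts set slices with D1/D5 activation alone apart from slices in which Aβ, the nanosphere or TTK21 was present.

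Among the genes that were higher in SKF than in the mean of the other groups were Junb, Maff, Gadd45b and Sik1 of the activity response. Pim1 and Socs3 of the NF-κB and STAT3 feedback list, Irf1 and Tapbp of the interferon and antigen presentation list, and Atf5, Ppp1r1b and Col11a2 were also higher. Among the lower genes were Rnf138, Mcts1, several zinc finger genes, the glutamate receptor subunits Gria2 and Grik2, and Mt-nd4 of the mitochondrial genome. In edgeR's quasi-likelihood test 321 of 15032 genes were called at an adjusted p-value under 0.05, which is 2.14% of the genes tested, with 120 higher (0.798%) and 201 lower (1.34%) in SKF. The log2 fold change, SKF minus the mean of the others, had a median of 0.62 among genes that rose and -0.63 among genes that fell, and of 0.011 among all genes tested. Beyond a log2 fold change of 1.5 there were 11 called genes (0.0732%), 3 higher and 8 lower. In normalized CPM, that is CPM after TMM scaling, where CPM relates a count to its library total, both SKF libraries lay outside the range of the 8 others for 310 of the 321 genes and for 17.1% of all genes tested, a share that the selection of the 321 in the same libraries largely fixes. In microdissected tissue, fewer cells of a type and less RNA per cell cannot be told apart.

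The number of calls depended on single libraries. It was 7 without SKF 1, 291 without SKF 2, 104 without SKF+Aβ 1, 73 without SKF+Aβ+CSP 1, 1 without SKF+Aβ+CSP 2, 51 without SKF+Aβ+CSP‐TTK21 1, 639 without CSP‐TTK21 alone 1 and 42 without CSP‐TTK21 alone 2. Without any of the 8 other libraries in turn, all 321 genes had an unadjusted p-value under 0.05. The same held for 317 of them without SKF 1 and 318 without SKF 2, a measure that their selection in the same libraries in part fixes. The 2 SKF libraries also differed more from each other than the libraries of any other group (12.1 as chi-square over its degrees of freedom, against 4.73 to 9.53). Total counts were between 6753742 and 8473407 per library, where 3 counts correspond to 0.354 to 0.444 CPM.

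**Figure D1:**
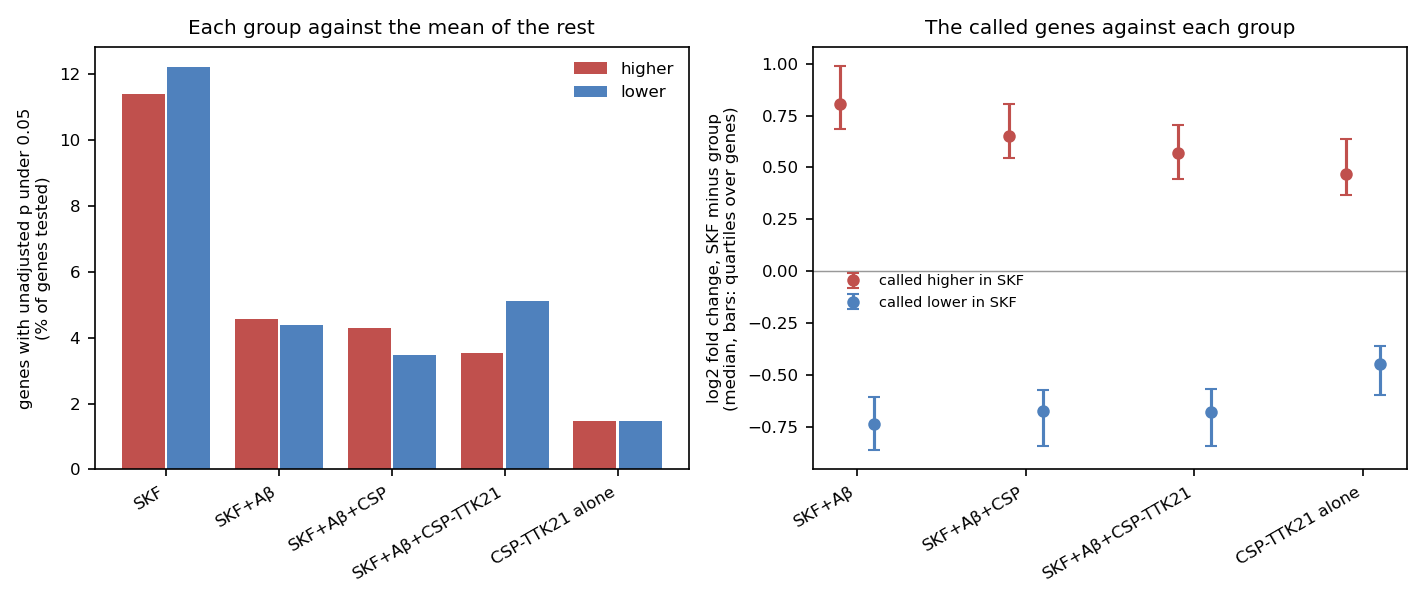
Left, percent of the 15032 genes higher (red) or lower (blue) at an unadjusted p-value under 0.05 when each group is set against the mean of the rest (edgeR). Right, median log2 fold change of the 120 genes higher and the 201 genes lower in SKF against each other group, with bars from the first to the last quartile. SKF has 11.4% and 12.2% on the left, and the smallest medians on the right, 0.47 and -0.45, are those against CSP‐TTK21 alone.

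More genes differed between SKF and the mean of the rest than for any other group. Over the 321 genes, CSP‐TTK21 alone was most often the nearest of the other groups to SKF. That group lacked Aβ, but it also lacked SKF and received CSP‐TTK21, so the parts of these cannot be told apart. At an unadjusted p-value under 0.05, 23.6% of genes differed in SKF, against 2.94% in CSP‐TTK21 alone, 8.64% in SKF+Aβ+CSP‐TTK21, 7.76% in SKF+Aβ+CSP, and 8.94% for SKF+Aβ, each set against the mean of its own 4 remaining groups. After adjustment SKF+Aβ+CSP had 1 called gene (0.00665%) and edgeR called 0 in each of the other three. The difference between these counts was not tested. Among the 4 other groups themselves edgeR called 0 genes, with 847 (5.63%) at an unadjusted p-value under 0.05 and 12 called by DESeq2. Of the 321 genes, 56 had an unadjusted p-value under 0.05 in that test.

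The 120 higher genes had a median log2 fold change of 0.47 against CSP‐TTK21 alone, 0.57 against SKF+Aβ+CSP‐TTK21, 0.65 against SKF+Aβ+CSP and 0.81 against SKF+Aβ. For the 201 lower genes the medians were -0.45, -0.68, -0.67 and -0.74 in the same order. CSP‐TTK21 alone was the nearest of the 4 groups to SKF for 254 of the 321 genes, and SKF+Aβ the farthest for 171. Nearest and farthest groups were not counted over all genes tested or with a library left out. The counts therefore do not set the 321 genes apart from the rest. These comparisons share the SKF libraries. In a contrast without SKF libraries, added after the data had been seen, CSP‐TTK21 alone minus the mean of the 3 groups with Aβ had a median of 0.22 over the genes higher in SKF and -0.26 over the genes lower in SKF, against 0.0046 over all genes tested. In single comparisons SKF had 312 called genes against SKF+Aβ (2.08%), 3 against SKF+Aβ+CSP (0.02%) and 1 against SKF+Aβ+CSP‐TTK21 (0.00665%), where DESeq2 called 818, 456 and 330. The 312 became 1 without SKF+Aβ 1, 13 without SKF+Aβ 2, 11 without SKF 1 and 26 without either SKF+Aβ+CSP library, and the 1 became 335 without SKF 2, so these counts do not rank the groups. Against CSP‐TTK21 alone edgeR called 0, where 1170 genes (7.78%) had an unadjusted p-value under 0.05 and DESeq2 called 3. The 3 genes against SKF+Aβ+CSP were Ppp1r1b and both Y_RNA copies described with the small RNAs, and the gene against SKF+Aβ+CSP‐TTK21 was a Y_RNA copy.

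**Figure D2:**
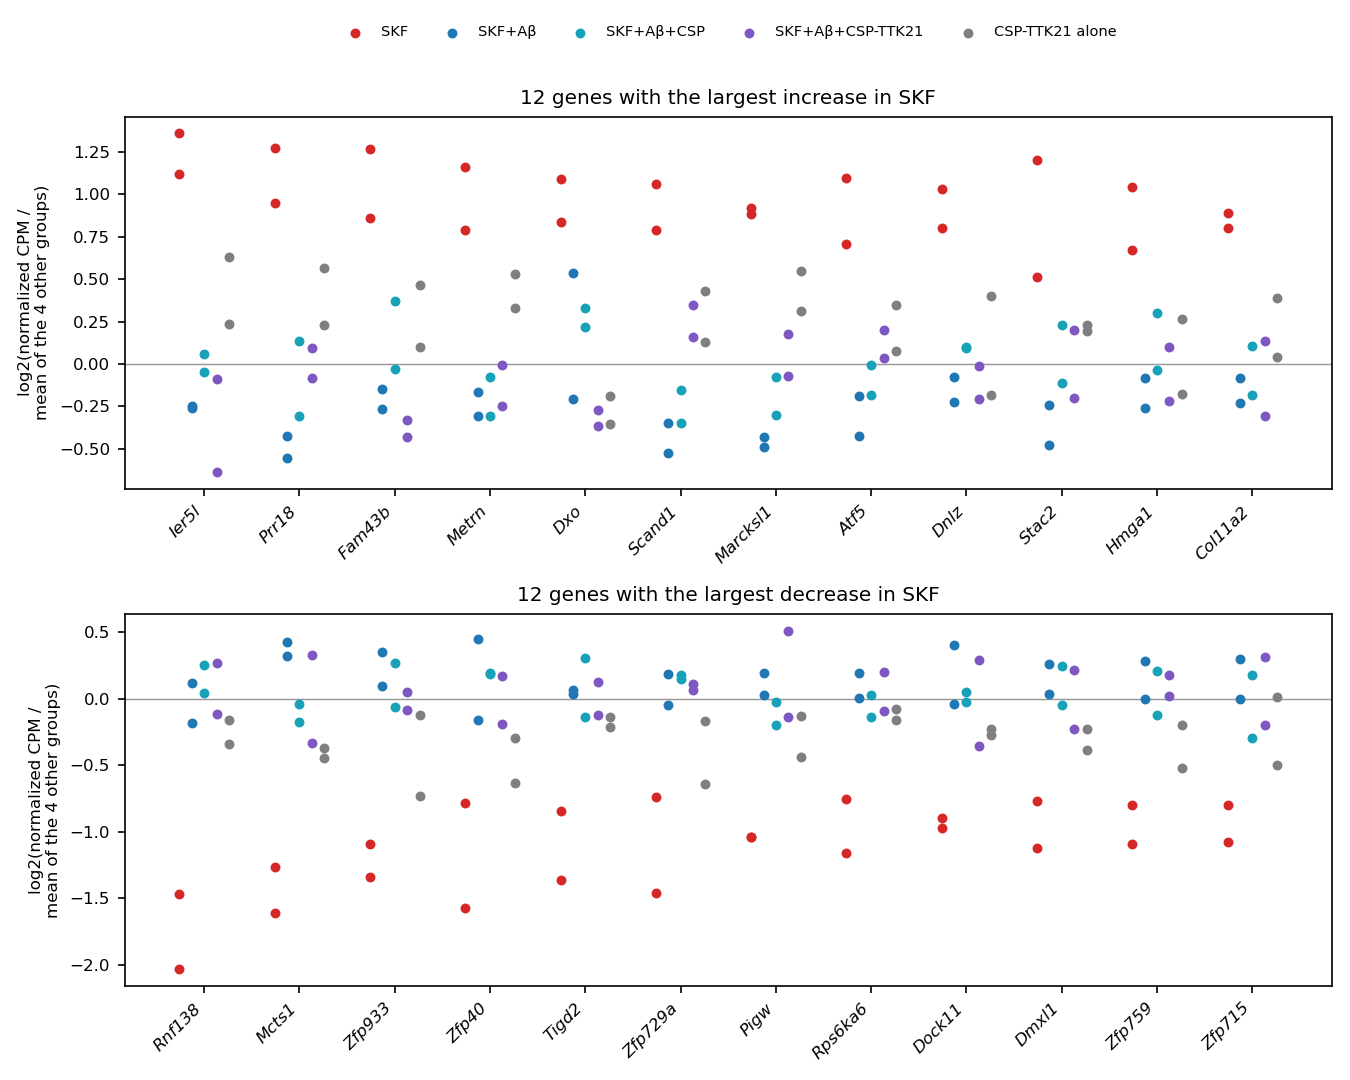
The 12 highest and 12 lowest called genes, without small structural RNAs and LOC, RGD or clone names, among those with a symbol, a mean of at least 3 normalized CPM and no overlap, each library as log2 of its normalized CPM over the mean of the 4 other groups. SKF points (n = 2) lie above all 8 others for Ier5l to Col11a2 and below all 8 others for Rnf138 to Zfp715, as the choice of these genes required.

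Prr18, Atf5 and Col11a2 were among the 12 called genes with the highest log2 fold change once small structural RNAs and genes with LOC, RGD or clone names were left out. The 12 had values from 0.85 to 1.27 and adjusted p-values from 0.0185 to 0.0491, and were chosen among genes with a mean of at least 3 normalized CPM whose libraries did not overlap. Prr18 had a normalized CPM of 22.4 and 28.0 in SKF and of 7.90, 11.7 and 17.2 (lowest, median and highest) in the 8 other libraries. Both SKF values lay above every other library, and the log2 fold change was 1.15 with a standard error of 0.16 (edgeR, adjusted p = 0.0185). Atf5, a transcription factor of the integrated stress response, had 43.8 and 57.4 in SKF and 20.0, 27.1 and 34.2 in the others. It was also outside the range of the others, with a log2 fold change of 0.93 ± 0.13 (SE, adjusted p = 0.0185). The paper's qRT-PCR gave the opposite direction, with ATF5 higher after Aβ, with or without CSP, than in SKF alone. Col11a2, a chain of type XI collagen, rose by 0.85 ± 0.13 from a median of 160 in the others to 283 and 301 in SKF. Ier5l, of the immediate early response family, rose by 1.27 ± 0.24 and Metrn, which encodes the secreted factor meteorin, by 1.01 ± 0.16. Marcksl1, an actin-binding substrate of protein kinase C, rose by 0.94 ± 0.16 and Hmga1, an architectural chromatin protein, by 0.87 ± 0.15. Dxo, a decapping exonuclease, and Stac2, an adaptor of voltage-gated calcium channels, rose by 0.99 and 0.91. The value of Stac2 lay between 0.54 and 1.21 when a library was left out. Fam43b, Scand1 and Dnlz completed the 12, with 1.10, 0.96 and 0.92.

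Myh14 and Ppp1r1b changed by less, but with small errors. Myh14, a non-muscle myosin heavy chain, had 87.5 and 78.2 in SKF and 38.9, 50.3 and 59.1 in the others, and a log2 fold change of 0.77 ± 0.11 (edgeR, adjusted p = 0.0185). Ppp1r1b encodes DARPP-32, which inhibits protein phosphatase 1 once protein kinase A has phosphorylated it, and had 75.6 and 77.7 in SKF and 33.0, 45.2 and 59.5 in the others. The groups did not overlap for either gene. The log2 fold change of Ppp1r1b was 0.75 ± 0.11 (adjusted p = 0.0185) against the mean of the others, 0.41 against CSP‐TTK21 alone, 0.50 against SKF+Aβ+CSP‐TTK21 and 1.05 against each of SKF+Aβ+CSP and SKF+Aβ.

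A ubiquitin ligase, a translation factor and 5 zinc finger genes were among the 12 called genes with the lowest log2 fold change under the same choice. Among the genes that this choice left out were Fam71d, SNORA23, LOC691422 and a Y_RNA copy, with -2.93, -2.46, -2.10 and -1.62. The 12 had values from -1.70 to -0.92 and adjusted p-values from 0.0185 to 0.0474. Rnf138, a ubiquitin ligase of DNA double-strand break repair, had 2.07 and 3.07 in SKF and 6.68, 8.29 and 10.2 in the others, and fell by 1.70 ± 0.26 on the log2 scale (edgeR, adjusted p = 0.0185). Mcts1, which acts with Denr in translation reinitiation, had 6.91 and 8.81 in SKF and 15.5, 19.7 and 28.4 in the others, and fell by 1.40 ± 0.20. Both genes were lower in each SKF library than in any other library. Dmxl1, a regulator of the vacuolar proton pump, had 122 and 156 in SKF and 203, 265 and 318 in the others, with a log2 fold change of -0.93 ± 0.15. Zfp933, Zfp40, Zfp729a, Zfp759 and Zfp715, which encode zinc finger proteins, fell by 1.19, 1.10, 1.04, 0.92 and 0.92. Tigd2, derived from a transposase, and Pigw, an enzyme of GPI anchor synthesis, had log2 fold changes of -1.07 and -1.02. Rps6ka6, a kinase of the RSK family, and Dock11, an exchange factor of Cdc42, had -0.94 and -0.93. Of the genes outside these 12, Sirt1, an NAD-dependent deacetylase and the only called member of 24 acetyltransferases and deacetylases, had 20.2 and 19.0 in SKF and 27.5, 35.3 and 38.7 in the others, and a log2 fold change of -0.79 ± 0.13 (adjusted p = 0.0215). That list had a called share of 4.17%, against 2.14% of all genes tested, and a median of 0.055, with 4 higher and 2 lower at an unadjusted p-value under 0.05.

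Among immediate early transcription factors Junb and Maff rose. Of 25 measured members 2 rose and 0 fell, against 0.798% higher and 1.34% lower of all genes tested, and 12 (48.0%) were higher at an unadjusted p-value under 0.05, against 11.4% of all genes tested. The median of the list was 0.48, 0.60 against CSP‐TTK21 alone, 0.25 against SKF+Aβ+CSP‐TTK21, 0.45 against SKF+Aβ+CSP and 0.38 against SKF+Aβ. Against the mean of the others it was 0.29 without SKF 1 and 0.51 without SKF 2. Without SKF 1 the number higher was 5 (7.46% of all genes), and without SKF 2 it was 12 (9.94% of all genes). Junb, a partner of Fos in the AP-1 factor, had 275 and 237 in SKF and 92.6, 142 and 189 in the others. Maff, a small Maf protein, had 105 and 103 in SKF and 60.2, 69.6 and 86.3 in the others. In both genes the SKF libraries exceeded all others, and the log2 fold changes were 0.85 ± 0.19 and 0.54 ± 0.12 (edgeR, adjusted p = 0.0431 and 0.0426). Against CSP‐TTK21 alone, the group without SKF, Junb had a log2 fold change of 1.16.

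The best known members did not pass the test. Fos had 489 and 599 in SKF and 190, 315 and 528 in the others, with a log2 fold change of 0.71 (adjusted p = 0.0921). Egr1, with 557 and 596 in SKF and 231, 429 and 589 in the others, had 0.46 (adjusted p = 0.192). The ranges of both genes overlapped with those of the other libraries. Fosl2, Jund, Nr4a1, Jun and Egr2 had values of 0.70, 0.48, 0.58, 0.48 and 0.84 with adjusted p-values from 0.0651 to 0.131, whereas Nr4a3 was at 0.020.

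Among 23 synaptic and other effectors of activity 2 rose and 0 fell, against 0.798% higher and 1.34% lower of all genes tested. At an unadjusted p-value under 0.05, 6 (26.1%) were higher and 3 (13%) lower, against 11.4% and 12.2% of all genes tested. Without SKF 1 there were 2 higher and the median turned from 0.13 to -0.21, and without SKF 2 there were 8 with a median of 0.34. Gadd45b, which promotes DNA demethylation at activity-regulated genes, had 136 and 132 in SKF and 69.9, 89.8 and 104 in the others, a log2 fold change of 0.59 ± 0.12 (edgeR, adjusted p = 0.0347). Sik1, a kinase that restrains the CREB coactivators, had 129 and 122 in SKF and 69.6, 101 and 110 in the others, a log2 fold change of 0.41 ± 0.10. Its adjusted p-value, 0.04996, was just inside the threshold. Both genes were above the range of the others. Sik1 had 0.75 against CSP‐TTK21 alone and 0.24, 0.28 and 0.37 against the 3 groups that received SKF with Aβ. Arc, an organizer of postsynaptic receptor trafficking, had 445 and 226 in SKF and 76.3, 200 and 271 in the others, which overlapped, and 0.86 as log2 fold change (adjusted p = 0.0824). Bdnf had 0.29, and Homer1, a postsynaptic scaffold, -0.027. Of 16 phosphatases and Sprouty genes that feed back on MAPK signalling none was called, and 4 (25%) were higher at an unadjusted p-value under 0.05, against 11.4% of all genes. That number was 0 without SKF 1, and 5 without SKF 2, where 2 were called.

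The promoters of the 4 activity genes that rose are shown because CREB, the factor downstream of D1/D5 receptors, binds the element TGACGTCA or its shorter core TGACG. Sequences are the 250 bases before the start of each gene in RefSeq (GRCr8), 5′ to 3′ on the strand of the gene. Capitals mark TGACGTCA, or TGACG on either strand, where the full element holds the core on both strands. Maff lies at chr7:112792537-112792786 (plus strand), Junb at chr19:40080876-40081125 (plus), Sik1 at chr20:9958647-9958896 (minus) and Gadd45b at chr7:9430719-9430968 (minus).
Maff: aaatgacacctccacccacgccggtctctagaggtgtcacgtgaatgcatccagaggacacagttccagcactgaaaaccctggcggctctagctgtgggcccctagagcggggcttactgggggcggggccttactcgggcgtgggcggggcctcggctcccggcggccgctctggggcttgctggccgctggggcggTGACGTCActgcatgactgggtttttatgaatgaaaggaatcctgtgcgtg
Junb: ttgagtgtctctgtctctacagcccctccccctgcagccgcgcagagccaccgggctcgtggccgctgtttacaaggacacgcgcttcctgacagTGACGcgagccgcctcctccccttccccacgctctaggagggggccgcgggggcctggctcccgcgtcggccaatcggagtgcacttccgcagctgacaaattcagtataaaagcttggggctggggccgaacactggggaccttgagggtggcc
Sik1: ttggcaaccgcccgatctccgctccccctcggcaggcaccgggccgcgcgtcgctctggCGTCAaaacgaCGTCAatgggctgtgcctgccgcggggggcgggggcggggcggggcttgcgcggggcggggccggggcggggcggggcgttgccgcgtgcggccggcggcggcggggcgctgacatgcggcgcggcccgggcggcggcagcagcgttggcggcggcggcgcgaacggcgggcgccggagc
Gadd45b: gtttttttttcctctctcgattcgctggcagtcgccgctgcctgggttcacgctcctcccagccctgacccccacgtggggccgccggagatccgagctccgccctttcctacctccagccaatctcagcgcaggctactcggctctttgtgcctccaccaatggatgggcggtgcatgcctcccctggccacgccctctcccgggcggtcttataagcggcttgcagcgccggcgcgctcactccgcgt
The Maff window held 1 full element, the Junb window 1 core and the Sik1 window 2 cores, while these letters are not in the Gadd45b window. Among 33469 rat promoters of the same length, 1.59% held the full element and 18.2% the core. A match describes the letters of the window and not the binding of a factor.

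**Figure D3:**
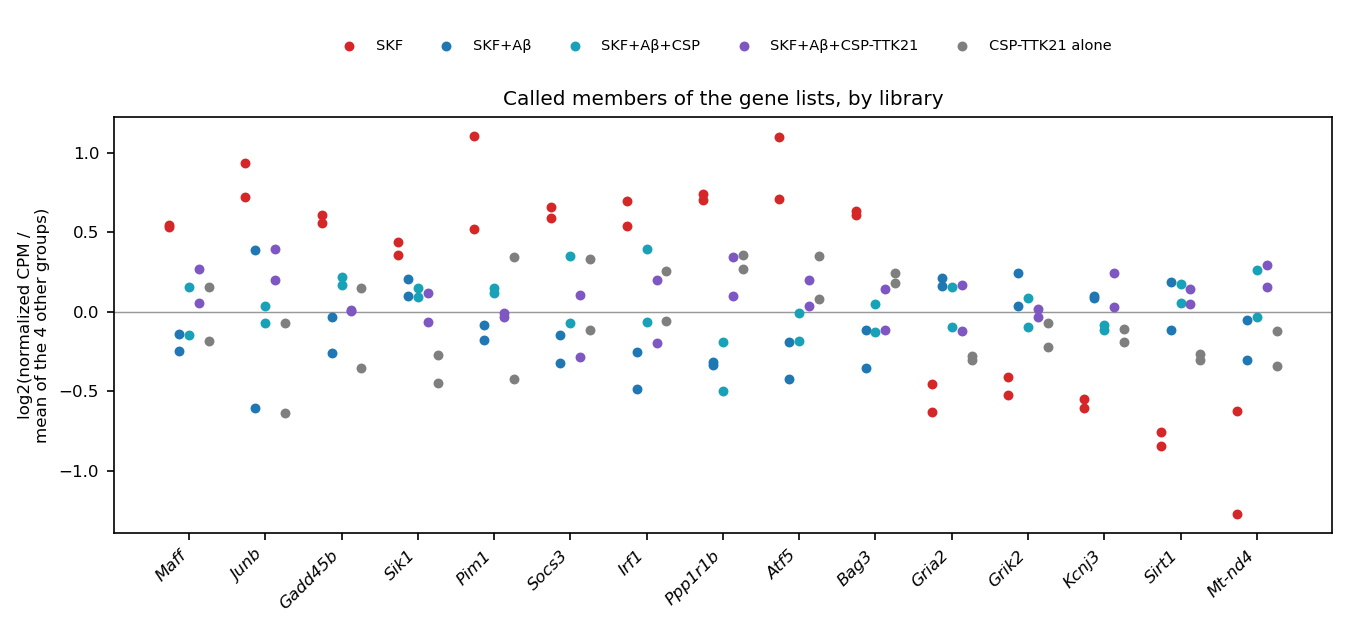
15 called members of the gene lists in each library, as log2 of normalized CPM over the mean of the 4 other groups, with a colour for each group (n = 2). SKF points lie above the 8 others from Maff to Bag3 and below them from Gria2 to Mt-nd4, where SKF 1 had the lowest level, 125 against 197 in SKF 2. Not all called members are shown, and Il4r and RT1-CE16, which overlapped the others, are left out. Both SKF libraries lay outside the 8 others for 17.1% of all genes tested.

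Members of the NF-κB and STAT3 feedback list, which holds inhibitors such as Socs3 and also other genes of these pathways, were called only as higher. Of 26 measured members 3 rose and 0 fell, against 0.798% higher and 1.34% lower of all genes tested, and 13 (50.0%) were higher at an unadjusted p-value under 0.05, against 11.4%. Their number was 6 without SKF 1 (7.46% of all genes) and 17 without SKF 2 (9.94%), with medians of 0.19 and 0.58 in place of 0.50. The median log2 fold change of the list was 0.15 against SKF+Aβ+CSP and 0.44 to 0.65 against the other three groups. Pim1, a kinase induced by STAT3, had 80.9 and 53.9 in SKF and 28.1, 37.1 and 47.7 in the others (0.84 ± 0.17, edgeR, adjusted p = 0.0345). Socs3, which inhibits JAK kinases, had 55.2 and 57.9 in SKF and 29.3, 34.4 and 46.7 in the others (0.63 ± 0.15, adjusted p = 0.0477). The SKF libraries exceeded all others in both. Il4r, the receptor chain of IL-4, was called at 0.87 ± 0.21, but SKF 1 had 72.6 and SKF 2 had 33.2, within the range of 19.4 to 42.7 of the others, and without SKF 1 the value was 0.22. Rela and Nfkbia, the p65 subunit and its inhibitor, had 0.44 and 0.46 (adjusted p = 0.0557 and 0.125). Of 21 acute cytokines and chemokines none was called, with 4 higher and 1 lower at an unadjusted p-value under 0.05 (11.4% and 12.2% of all genes) and a median of 0.25. Without SKF 1 there was 1 higher and the median was -0.085, and without SKF 2 there were 9 higher, 2 of them called, with a median of 0.36. Cxcl1 had 189 in SKF 1 and 36.4 in SKF 2.

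Of 28 interferon and antigen presentation genes 3 rose and 0 fell, against 0.798% higher and 1.34% lower of all genes tested. Irf1, a transcription factor of the interferon response, had 126 and 141 in SKF and 62.1, 83.3 and 114 in the others, a log2 fold change of 0.63 ± 0.14 (edgeR, adjusted p = 0.0426). Tapbp encodes tapasin, which loads peptides onto MHC class I, and had 23.5 and 19.4 in SKF and 9.69, 12.1 and 15.6 in the others (0.80 ± 0.15, adjusted p = 0.0318). Both were above the range of the others. RT1-CE16, an MHC class I gene, had 10.5 and 6.41 in SKF and 1.49, 3.65 and 8.03 in the others (1.21 ± 0.29), and is uncertain because its family has near-identical copies. The median of the list was 0.25, 0.18 against CSP‐TTK21 alone, 0.52 against SKF+Aβ+CSP‐TTK21, -0.086 against SKF+Aβ+CSP and 0.58 against SKF+Aβ. Without SKF 1 the median was -0.022, with 3 higher and 2 lower at an unadjusted p-value under 0.05, and without SKF 2 it was 0.48, with 11 higher and 1 lower.

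Stress and lipid genes had 1 or 2 called members per list, and of all genes tested 0.798% were called higher and 1.34% lower. Atf5 was the called member among 25 genes of the integrated stress response, of which 7 were higher and 0 lower at an unadjusted p-value under 0.05, Ppp1r15a and Ddit4 among them with 0.48 and 0.46. Without SKF 2 there were 7 higher and 3 lower. Among 22 heat shock proteins and their regulators Bag3, a cochaperone of Hsp70, rose by 0.63 ± 0.11 (79.4 and 80.6 in SKF, 40.7, 50.8 and 61.5 in the others, edgeR, adjusted p = 0.0246). Hsf2, a heat shock transcription factor, had a log2 fold change of -0.59 ± 0.12 (38.4 and 44.9 in SKF, 53.3, 61.5 and 73.5 in the others, adjusted p = 0.0368). Neither gene overlapped. Of this list 2 were higher and 7 (31.8%) lower at an unadjusted p-value under 0.05, against 11.4% and 12.2% of all genes, with a median of -0.10. Without SKF 2 there were 3 higher and 3 lower and the median was 0.017. Ftl1, the light chain of the iron store ferritin, rose by 0.62 ± 0.10 and was the called member of 18 antioxidant genes of the Nrf2 response. Srebf1, a regulator of lipid synthesis, rose by 0.60 ± 0.13 and was the called member of 23 cholesterol synthesis genes, of which 8 were higher and 0 lower at an unadjusted p-value under 0.05, but 4 and 3 without SKF 2. Of 65 ribosomal protein genes 3 rose, Rpl13a, Rpl18 and Rpsa, by 0.56, 0.49 and 0.41, and Rpl39 had -0.71. At an unadjusted p-value under 0.05, 14 of them were higher, but 33 without SKF 1 and 4 without SKF 2, against 11.4%, 7.46% and 9.94% of all genes. Ribosomal protein genes held 0.839% and 0.980% of counts in SKF and 0.685% to 0.908% in the others (exact permutation test, two-sided, p = 0.111).

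**Figure D4:**
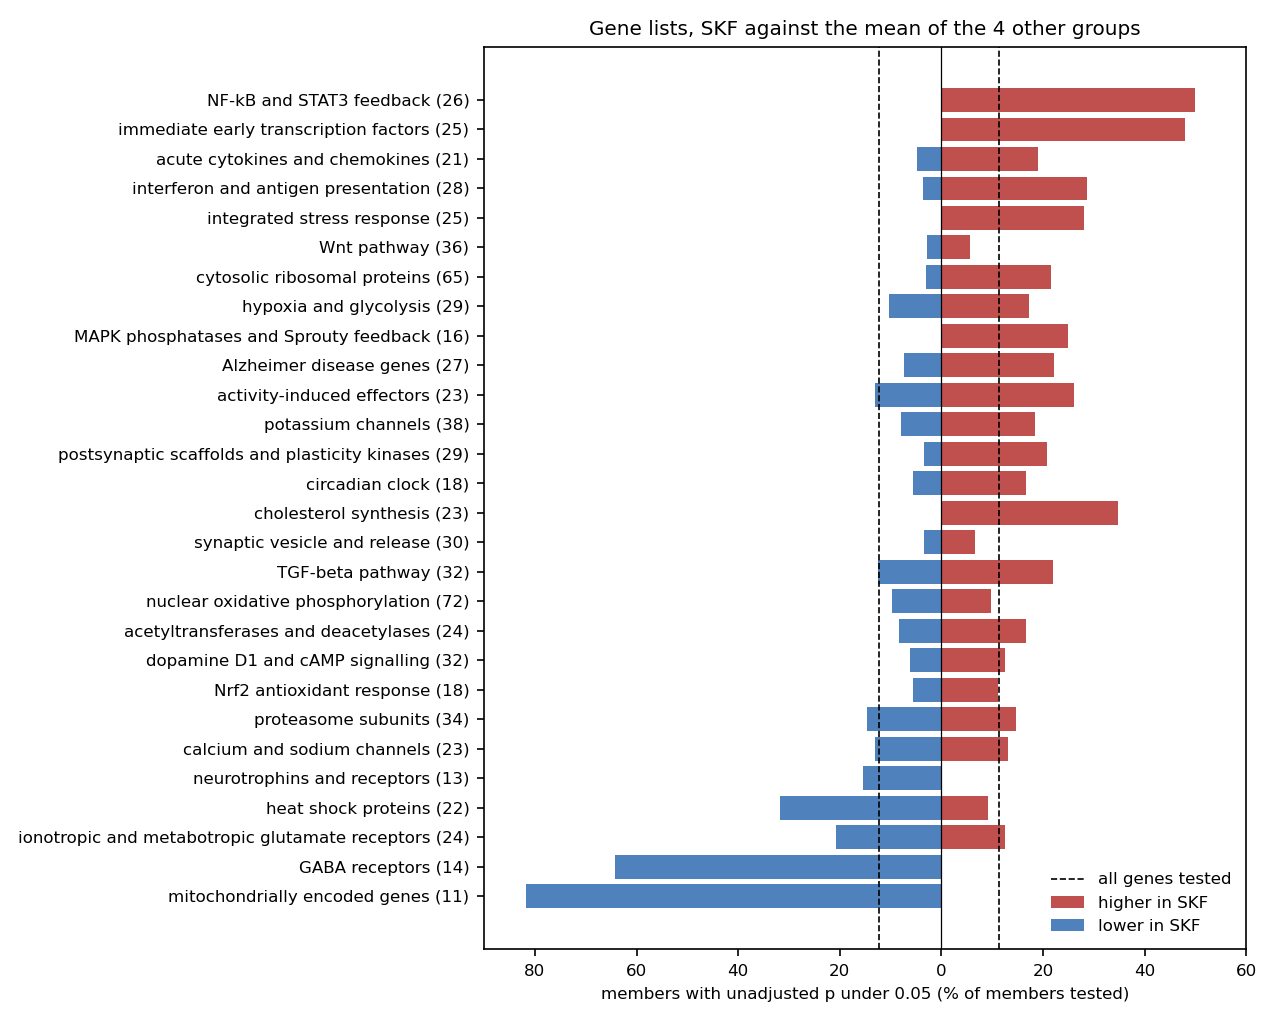
Percent of the members of each list that were higher or lower in SKF at an unadjusted p-value under 0.05 (edgeR). Dashed lines mark the percent over all genes tested, 11.4% higher and 12.2% lower, and mitochondrially encoded genes reach 81.8% lower, GABA receptors 64.3% lower and NF-κB and STAT3 feedback 50.0% higher.

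Subunits of receptors for glutamate, the main excitatory transmitter, were among the genes that fell, and those for GABA, the main inhibitory transmitter, were mostly below the mean of the others. Of 14 measured GABA receptor subunits 0 were called higher, and 9 (64.3%) were lower at an unadjusted p-value under 0.05, against 12.2% of all genes tested. Without SKF 1 that number was 2 (5.96% of all genes), and without SKF 2 it was 8 (11.2%). Gabra4 and Gabra2, α subunits of GABA-A receptors, had -0.63 and -0.48 (edgeR, adjusted p = 0.0527 and 0.0819), and Gabra3 0.038. Of 24 glutamate receptor genes 2 fell and 0 rose, against 1.34% and 0.798% of all genes, and 3 (12.5%) were higher and 5 (20.8%) lower at an unadjusted p-value under 0.05. None was called without SKF 1 or without SKF 2. Gria2, the AMPA receptor subunit that sets calcium permeability, had 753 and 852 in SKF and 944, 1195 and 1353 in the others (-0.53 ± 0.11, edgeR, adjusted p = 0.0426). Grik2, a kainate receptor subunit, had 106 and 115 in SKF and 131, 153 and 182 in the others (-0.46 ± 0.11, adjusted p = 0.0466). Both were below the range of the other libraries. Markers of dentate granule cells, which lie outside the CA1 region that was dissected, and whose summed CPM was 643 to 790 in SKF and 756 to 1021 in the others, had a median log2 fold change of -0.25, with 3 of 10 lower at an unadjusted p-value under 0.05, and their part in these results was not tested.

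Among 38 potassium channel genes Kcnj3, a subunit of the G protein-gated GIRK channel, was called, with 58.2 and 60.5 in SKF and 77.5, 87.0 and 105 in the others (-0.57 ± 0.11, edgeR, adjusted p = 0.0282). This 1 call (2.63%) stood against 2.14% of all genes tested. Of the list 7 were higher and 3 lower at an unadjusted p-value under 0.05, with a median of 0.12. The median was -0.032 without SKF 1 and 0.042 without SKF 2. Of 29 postsynaptic scaffolds and plasticity kinases, 30 vesicle genes and 23 calcium and sodium channel genes none was called, with 7, 3 and 6 members at an unadjusted p-value under 0.05 in either direction, against 23.6% of all genes tested.

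Transcripts of the mitochondrial genome, which encodes subunits of the respiratory chain and of ATP synthase, were lower in SKF. Of 11 measured genes 1 fell, and 9 (81.8%) were lower at an unadjusted p-value under 0.05, with 3 without SKF 1 and 11 without SKF 2. Without SKF 1 none was called and the median was -0.21, and without SKF 2 there were 7 called lower and the median was -1.03, against -0.51 with both. Of all genes tested 1.34% were called lower and 12.2% were lower unadjusted, 5.96% without SKF 1 and 11.2% without SKF 2. Mt-nd4, a subunit of complex I, had 125 and 197 in SKF and 239, 294 and 372 in the others (-0.90 ± 0.16, edgeR, adjusted p = 0.0254). Mt-co1, a subunit of complex IV, had -0.76 (adjusted p = 0.0513), and between -1.25 and -0.38 when a library was left out. The mitochondrially encoded genes held 2.63% of all counts in SKF 1 and 4.02% in SKF 2, and 4.40%, 4.79% and 5.69% in the others. The mean difference was -1.58 percentage points (exact permutation test over libraries, two-sided, p = 0.0222, the smallest p that 2 against 8 libraries can give). SKF 1 was lowest. Without it the difference was -0.878 points, and without SKF 2 it was -2.28 points. With 1 SKF library the permutation test cannot give a p-value under 0.05, so it was not used there. Of 72 nuclear genes of oxidative phosphorylation Ndufb7, a complex I subunit, rose by 0.64 ± 0.15, while 7 (9.72%) were higher and 7 lower at an unadjusted p-value under 0.05. The called share was 1.39%, against 2.14% of all genes tested, of which 11.4% were higher unadjusted. The median of the 72 genes was 0.074, but 0.18 without SKF 1 and -0.0995 without SKF 2, so the 2 SKF libraries differed in direction.

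**Figure D5:**
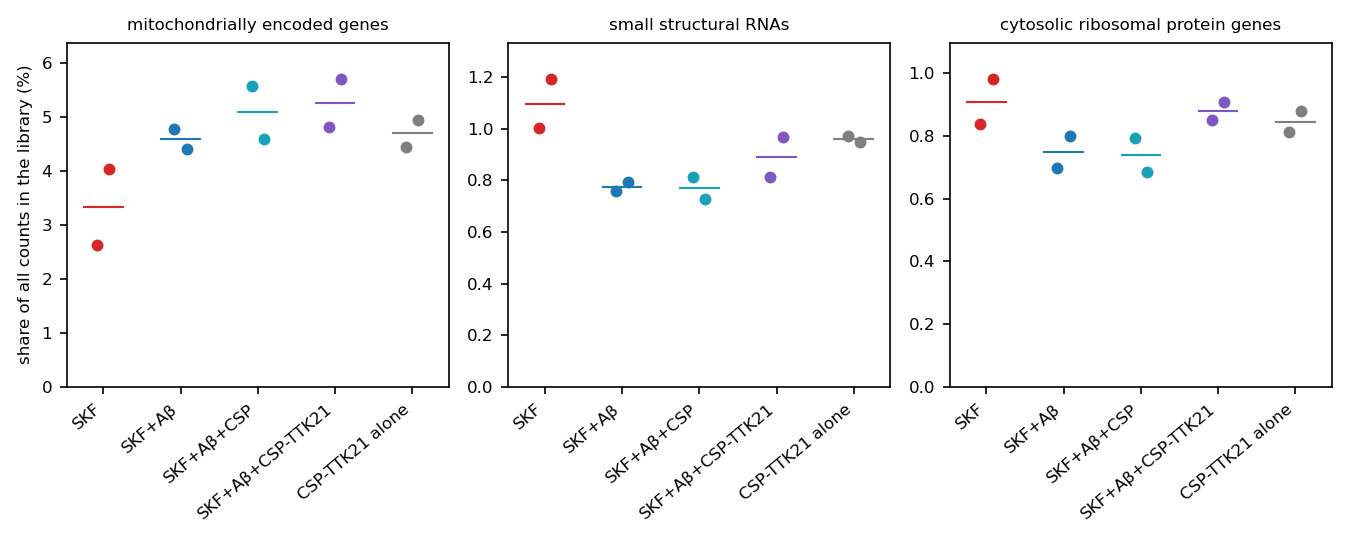
Percent of all counts in mitochondrially encoded genes, small structural RNAs and cytosolic ribosomal protein genes in each library, by group, with lines at the group means. Both SKF libraries lie below the others for the mitochondrial share (2.63% and 4.02%) and above them for small structural RNAs (1.00% and 1.19%).

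Of 32 genes of dopamine D1 and cAMP signalling Ppp1r1b rose and 0 fell, a called share of 3.12% against 2.14% of all genes tested. Drd1, the D1 receptor, had 1.66 and 2.67 in SKF and 3.21 to 4.81 in the others, a log2 fold change of -0.82 (adjusted p = 0.127), and Drd5 had 0.61. Creb1 had -0.15, and Crebbp and Ep300, which encode CBP and p300, had -0.072 and -0.034. Of 36 Wnt pathway genes, with a called share of 2.78%, Nkd1, an inhibitor of canonical signalling, rose by 0.69 ± 0.16 (36.1 and 46.7 in SKF, 18.0, 26.4 and 32.5 in the others, edgeR, adjusted p = 0.0466). Of 32 TGF-β genes and 27 Alzheimer disease genes none was called, with 7 and 6 higher and 4 and 2 lower at an unadjusted p-value under 0.05 (11.4% and 12.2% of all genes). Tgfb1 and Apoe had 0.65 and 0.62 (edgeR, adjusted p = 0.0626 and 0.0501). For TGFβ the paper's qRT-PCR gave the opposite direction, higher after Aβ than in SKF alone. App had 0.19, S100b 0.078, Wnt10b 0.094 and Il6 -0.35, none of which passed the test. None was called of 18 clock, 29 hypoxia, 34 proteasome and 13 neurotrophin genes, where 4, 8, 10 and 2 had an unadjusted p-value under 0.05, against 23.6% of all genes tested.

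Small structural RNAs held 1.00% and 1.19% of counts in SKF and 0.728% to 0.971% in the others, 0.248 points higher (exact permutation test, two-sided, p = 0.0222, the smallest possible). The difference was 0.155 without SKF 2 and 0.342 without SKF 1. A gene of RNaseP_nuc (ENSRNOG00000054493), the RNA of nuclear ribonuclease P, named after its values were seen, had a normalized CPM of 3853 and 4982 in SKF and 1772, 2436 and 3374 in the others (0.80 ± 0.14, edgeR, adjusted p = 0.0262). The share and the members differed in direction. The 3 measured RNaseP_nuc copies alone summed to a normalized CPM of 3861 to 4988 in SKF and 1775 to 3378 in the others. All measured small structural RNAs summed to 9561 to 11715 in SKF and 6777 to 9794 in the others. Of 287 measured genes 9 rose and 8 fell, and 23 were higher and 68 lower at an unadjusted p-value under 0.05, with a median of -0.36. Among all genes tested 0.798% rose and 1.34% fell, and 11.4% were higher and 12.2% lower unadjusted. The gene with the lowest p-value was a Y_RNA copy (ENSRNOG00000060430), of the RNAs that bind the Ro60 protein, with 13.8 and 12.5 in SKF and 27.7, 38.4 and 60.4 in the others (-1.62 ± 0.15, edgeR, adjusted p = 5.66e-04). The other measured Y_RNA copy (ENSRNOG00000056608) had 9.54 and 8.81 in SKF and 11.5, 19.5 and 31.1 in the others (-1.17 ± 0.18, adjusted p = 0.0185). Both copies were below every other library in both SKF libraries. A copy of 7SK, the RNA that holds the elongation factor P-TEFb inactive, had 6.91 and 8.01 in SKF and 1.17, 1.74 and 3.52 in the others (1.89 ± 0.30), and 3 of 37 copies rose. Of 8 copies of Metazoa_SRP, the RNA of the signal recognition particle, 3 rose and 7 were higher at an unadjusted p-value under 0.05. Of 178 small nucleolar and Cajal body RNAs 2 rose and 6 fell, with a median of -0.42, and SNORA23 had 7 and 5 counts in SKF and 23 to 41 in the others. Reads of these RNAs may be divided among near-identical genes, so each value is uncertain. The copy of Metazoa_SRP with the highest log2 fold change of the called genes, 3.16, had 2 and 193 counts in SKF.

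Markers of cell types were compared because slices differ in what they hold, and apart from Ppp1r1b, which is also a striatal marker, none was called. The 15 oligodendrocyte markers summed to a CPM of 17534 to 25805 in SKF and 12073 to 27654 in the others, the 14 microglia markers to 238 to 392 and 232 to 410, and the 14 astrocyte markers to 6490 to 8650 and 6050 to 9379. Ranges also overlapped for the 15 endothelial and mural markers (303 to 424 and 258 to 456) and the 14 meningeal markers (518 to 849 and 427 to 698). At an unadjusted p-value under 0.05, 5 of the 15 oligodendrocyte markers (33.3%) were higher and 0 lower, against 11.4% and 12.2% of all genes. Without SKF 1 there were 6 higher with a median of 0.29, and without SKF 2 there were 1 higher and 1 lower with a median of -0.13. The microglia median was 0.58 without SKF 1, with 4 higher, and -0.25 without SKF 2, with 3 lower, 1 of them called. The astrocyte median likewise went from 0.28, with 5 higher, to -0.14, with 2 lower. Without SKF 2, 1 endothelial and mural marker and 2 meningeal markers were called higher. The 6 measured CA1 markers summed to 555 to 773 and 448 to 924. Of the CA1 markers Fibcd1 was at 0 counts in all 10 libraries, whereas Wfs1 and Mpped1 were present. Cldn5, Npy, Col1a2 and Isl1, markers of endothelium, interneurons, meninges and striatum, were also at 0 in all 10. Other members of those lists were present, such as Flt1 (240 to 691 counts), Gad1 (1062 to 1511), Col3a1 (32 to 121) and Pde10a (558 to 809). The cause of the zeros was not tested. Prox1, a marker of dentate granule cells, had 1024 to 1772 counts. The part of these cell types in the results above was not tested.

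Gene families were counted after the values had been seen and have no test of their own. Of all genes tested 0.798% were called higher and 1.34% lower, and 11.4% were higher and 12.2% lower at an unadjusted p-value under 0.05. Of 260 Zfp genes 17 fell and 2 rose, with a median of -0.12. Of 8 cullins, the scaffolds of ubiquitin ligases, 3 fell, Cul4b, Cul2 and Cul3, by 0.68, 0.58 and 0.45, and 5 were lower at an unadjusted p-value under 0.05. Of 46 Usp deubiquitinases 2 fell and 17 were lower at that level. Mapk8, a stress-activated kinase, and Ube3a, a ubiquitin ligase, fell by 0.60 and 0.53, and Npy1r, a neuropeptide Y receptor, by 0.73. Of 34 collagens 3 rose, Col11a2, Col16a1 and Col27a1, and 12 were higher and 1 lower at an unadjusted p-value under 0.05. Of this family Col4a1 and Col4a2 had 1.21 and 1.15 without SKF 2, but -0.030 and -0.0025 without SKF 1. Col11a2 stayed between 0.80 and 0.92 when a library was left out. Of the 4 Gadd45 genes Gadd45b and Gadd45a rose, the latter by 0.63 ± 0.13. Cdk5r2, an activator of the neuronal kinase Cdk5, and Nrgn, which binds calmodulin in dendritic spines, rose by 0.66 and 0.42.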

How the data were processed

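RNA was measured in 10 libraries, whose labels gave group and replicate. The table that the authors deposited holds raw counts of 32545 rat Ensembl genes for each library, not pooled. The study's methods describe ribosomal RNA depletion, a stranded kit, Trim Galore, removal of PCR duplicates with Samtools, TopHat2, Cufflinks and Cuffdiff, and name both Rnor_6.0 and mm10. The submitters' processing notes list STAR, RSEM, HISAT2, Salmon and GRCh38, without saying which made the table. The counting program, its annotation and its use of strand are not given in the sources used here, so overlapping genes are uncertain.

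The analysis used edgeR 4.0.16 in R 4.3.3, with filterByExpr by group (15032 genes kept), TMM factors and 1 quasi-likelihood fit of group means over all 10 libraries (biological coefficient of variation 0.136). The contrast was SKF minus the mean of the 4 other group means, with Benjamini-Hochberg adjustment over all genes tested and a threshold of 0.05. The steps were tested on simulated data. Shares of counts were compared with exact permutation tests, which cover 45 arrangements. Alternatives were a replicate block, RLE and upper quartile factors, no filter, at least 10 counts in every library, DESeq2 1.42.0, limma 3.58.1 on log2 CPM with a prior count of 2, each other group left out of the mean, and each library left out.

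Named genes are the 12 highest and 12 lowest called genes with a symbol (small structural RNAs and LOC, RGD or clone names left out), libraries that do not overlap and a mean of at least 3 normalized CPM, the 5 small RNAs and the 6 genes with the lowest p, up to 6 called members of each list (or its 2 lowest p where under 2 were called), and genes the study names. Other named genes were chosen after their values were seen. The comparison and the lists were chosen with earlier results of these data known. Promoters matched 72.6% of genes tested, under the 80% required, so no check of GC content was made. Some single genes are not reported here.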

Additional observations from a re-analysis of the deposited data

How the results depend on the processing

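Of the 56 called genes that the rule for named genes chose and that are reported, all 56 kept their direction in every alternative run, up to 22 each, but a Y_RNA copy (ENSRNOG00000060430) was the only 1 past the threshold in all of them, and 3 (that copy, Prr18 and Atf5) were past it both without SKF 1 and without SKF 2. The number of calls moved with most choices, and apart from the number of genes tested or libraries used the cause was not tested. With 2 libraries a group, the spread is shared over groups, and when a library is left out the lone library is assumed to vary like the others. Depth limits genes near 3 counts, such as Fam71d with 2 and 1 counts in SKF.

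For SKF against the mean of the others (321 calls) the count was 565 with the replicate block, 1435 without a filter, 834 with DESeq2 (9786 genes with an adjusted p) and 651 without its independent filtering, an alternative added after seeing the data. It was 887 when CSP‐TTK21 alone was left out of the mean, 176 without SKF+Aβ+CSP‐TTK21, 100 without SKF+Aβ+CSP and 24 without SKF+Aβ, and 1 to 639 when a library was left out. RLE factors gave 308 calls, upper quartile factors 322, a minimum of 10 counts 446 and limma 411. Beyond a log2 fold change of 1.5 (11 calls) it was 20 with the block, 70 without a filter, 3 with at least 10 counts, 1 with DESeq2, 4, 5 and 24 without SKF+Aβ, SKF+Aβ+CSP or CSP‐TTK21 alone in the mean, and 1 to 38 without a library.

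SKF against SKF+Aβ (312 calls) had 1311 without a filter, 818 with DESeq2 (652 without its filtering) and 1 to 301 without a library. SKF against SKF+Aβ+CSP (3 calls) had 7 with the block, 754 without a filter, 54 with at least 10 counts, 456 and 307 with DESeq2, 8 with limma and 1 to 13 without a library. SKF against SKF+Aβ+CSP‐TTK21 (1 call) had 108 with the block, 902 without a filter, 330 and 230 with DESeq2 and 0 to 335 without a library. SKF against CSP‐TTK21 alone (0 calls, 1170 at an unadjusted p under 0.05 in edgeR) had 157 without a filter, 1 with at least 10 counts, 3 with DESeq2 in both forms, 1 with limma and 0 to 1 without a library. Differences among the 4 other groups (0 calls, 847 unadjusted in edgeR) had 6 with the block, 461 without a filter, 12 with DESeq2 in both forms and 0 to 1 without a library. Against the mean of the rest, SKF+Aβ (0 calls in edgeR, 1344 unadjusted) had 148 without a filter and 0 to 4 without a library, and SKF+Aβ+CSP (1 call) had 16 with the block, 160 without a filter, 8 with DESeq2 in both forms and 0 to 16 without a library. SKF+Aβ+CSP‐TTK21 (0 calls in edgeR, 1299 unadjusted) had 241 without a filter, 1 with DESeq2 in both forms and 0 without any library, and CSP‐TTK21 alone (0 calls in edgeR, 442 unadjusted) had 77 without a filter and 0 without any library.

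No source used here says whether same-numbered libraries of different groups came from the same animals. The correlations of their deviations from the group means were between -0.0691 and 0.237, with 4 of 10 over 0.1. The block is therefore not used beside results. The share of mitochondrially encoded genes differed by -2.28 to -0.878 points without a library, that of small structural RNAs by 0.155 to 0.342 and that of ribosomal protein genes, 0.107 points higher in SKF, by 0.0362 to 0.177.

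Genes that were not called and whose sign turned when a library was left out had, without SKF 1 and without SKF 2 as the ends of their range, -0.22 and 2.69 (Csf3), -0.030 and 1.21 (Col4a1), -0.0025 and 1.15 (Col4a2), -0.14 and 1.11 (Cdh5), -0.21 and 0.67 (Bdnf), 0.055 and -0.31 (Nov), -0.50 and 0.52 (Wnt10b), -0.87 and 0.034 (Il6) and 0.25 and -0.10 (S100b). Cxcl1 had -0.90 without SKF 1 and 1.46 without SKF 2, and Wnt10b -0.25 without SKF+Aβ+CSP‐TTK21 in the mean.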
